A study of Mus musculus with 2 samples.

Results

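The 8 genes described here encode the core of the machinery that fuses synaptic vesicles with the presynaptic membrane: Snap25, Stx1a, Vamp1, Vamp2, Cplx1, Cplx2, Nsf and Napb. They were chosen by name, as every transcript model that carries 1 of these symbols, and are 8 of the 19042 annotated genes with at least 1 read. The study sequenced total RNA as long reads, and the labels give the tissue as layer of hippocampus, without naming the layer. All animals were female B6CASTF1/J mice from The Jackson Laboratory, the F1 of C57BL/6J and CAST/EiJ, taken at 14 days of age, and the labels give no treatment. They form 1 group of 2 libraries (replicates 1 and 2), each from 2 µg of RNA of a pool of 3 animals with spike-in RNAs added. A pool averages its animals; the sample characteristics name different animals for the pools, while a description shared by both samples repeats those of replicate 1. No second condition exists, so levels and shares are descriptions, and the tests compare these 2 libraries with reads as the unit. Paired values below are replicate 1 first, then replicate 2.

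In the synaptic SNARE complex, syntaxin-1 and SNAP-25 on the plasma membrane zip together with synaptobrevin (VAMP) on the vesicle into a bundle that pulls both membranes together. Complexins bind the assembled bundle and act both as a clamp and as an aid to fast, calcium-triggered release. After fusion the ATPase NSF, recruited by SNAP adaptor proteins, takes the complexes apart so that the SNAREs can be used again. Several of these genes are spliced into more than 1 protein form, and Snap25 is the best known case, whose exons 5a and 5b exclude each other.

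Replicate 1 holds 1168366 reads and replicate 2 holds 888704, so that 1 read corresponds to 0.856 and 1.13 CPM (reads per 1000000 reads of the library), and a count of 0 allows up to 2.57 and 3.38 CPM. Each long read stands for 1 cDNA molecule, so CPM was not divided by transcript length. Markers of the labelled tissue were present: Slc17a7, the vesicular glutamate transporter of excitatory neurons, stood at 1242 ± 157 CPM (SD, n = 2), and the 4 hippocampal field markers (Prox1, C1ql2, Wfs1, Pcp4) summed to 512 and 566 CPM. Of the inhibitory markers, Gad1, a GABA-synthesising enzyme, had 201 and 210 reads, Gad2 22 and 26, and Slc32a1, the vesicular GABA transporter, 0 and 2, and the 3 summed to 191 and 268 CPM. The libraries were not alike in marker levels. Prox1 had 8 and 34 reads, C1ql2 95 and 126, Wfs1 126 and 141 and Pcp4 369 and 202. By the test used below all 4 were called, Pcp4 higher in replicate 1 and the others in replicate 2, and with the length trend removed 2 of them were. All 3 choroid plexus markers (Kcnj13, Clic6, Folr1) had reads in replicate 1, 77.9 CPM summed, and 0 reads in replicate 2. The 4 astrocyte markers summed to 2444 and 3934 CPM, and 3 of them were higher in replicate 2 by the test used below. In bulk tissue, fewer cells of a type and less RNA per cell cannot be told apart.

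The genes lie apart in the genome (mm10, GENCODE M21). Snap25 spans chr2:136713453-136782428 on the plus strand with 3 annotated transcripts, and Napb chr2:148693985-148732467 on the minus strand with 3. Stx1a spans chr5:135023482-135051100 (plus, 6 transcripts) and Cplx1 chr5:108518554-108550024 (minus, 2). Vamp2 spans chr11:69088490-69092384 (plus, 5) and Nsf chr11:103821782-103954056 (minus, 10). Vamp1 spans chr6:125215551-125245964 (plus, 6) and Cplx2 chr13:54371349-54383917 (plus, 1).

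The sequences that distinguish the protein forms seen in the reads come first. Exons 5a (chr2:136769743-136769860) and 5b (chr2:136770057-136770174) of Snap25 are shown, on the plus strand of mm10, because reads split between them. Both are 118 nt long and 196 nt of intron lie between them. Capitals mark the bases at which the exons differ.
Snap25 exon 5a: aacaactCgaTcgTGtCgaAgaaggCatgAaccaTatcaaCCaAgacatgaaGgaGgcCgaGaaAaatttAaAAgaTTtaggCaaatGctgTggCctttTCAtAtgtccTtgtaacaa
Snap25 exon 5b: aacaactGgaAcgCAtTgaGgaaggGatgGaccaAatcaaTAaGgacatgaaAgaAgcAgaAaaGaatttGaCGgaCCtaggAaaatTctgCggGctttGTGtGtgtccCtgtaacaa
The exons differ at 31 of 118 bases. Of the 206 codons of either form, 26 differ and 9 of these encode another residue, between codons 58 and 89. The stretch encodes the end of the first SNARE motif and the cysteines next to it that are palmitoylated. Sequences here and below are from the GENCODE M21 transcripts on mm10.

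Snap25, the plasma membrane SNARE that contributes a pair of helices to the bundle, had the highest level of the 8, with 1418 and 1215 reads. On the CPM scale its level was 1214 and 1367, a mean of 1290 ± 109 CPM (SD, n = 2) and rank 53 among the 19042 genes. Snap25-201, which holds exon 5b, took 1136 and 985 reads, and Snap25-202, which holds exon 5a, took 179 and 147. Among reads that span both flanking splice sites and hold 1 of the exons, exon 5a was used by 186 of 1352 in replicate 1, or 13.8% (95% exact interval 12.0 to 15.7). In replicate 2 it was used by 149 of 1168, or 12.8% (10.9 to 14.8). The mean was 13.3 ± 0.71% (SD, n = 2), the intervals overlap, and a 2-sided Fisher exact test did not pass the threshold (p = 0.480, adjusted p = 1 over the 10 exon and 3' end tests). No read skipped both exons, and 1 read, in replicate 1, held both.

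Some Snap25 reads had an unannotated first exon that runs 183 nt past the annotated donor site. They made up 17 of 1343 reads over the first junction in replicate 1 (1.27%) and 16 of 1158 in replicate 2 (1.38%), shares whose exact intervals overlap. It was joined to exon 5a in 5 of 19 reads of replicate 1 that start from any longer first exon and in 0 of 17 of replicate 2. With the annotated first exon, 13.6% and 12.9% of reads held exon 5a. The counts with the longer exon are too small to set an order.

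Annotated transcripts took 93.0 ± 0.31% of Snap25 reads, against 71.6 ± 0.16% over all annotated genes. The class called incomplete splice match, whose models hold a consecutive part of an annotated intron chain, took 5.14 ± 0.51%. Models with a new combination of annotated sites took 0.21 ± 0.30% and those with an unannotated site 1.66 ± 0.45%. The last exon was shared by 1396 of 1399 spliced reads in replicate 1 and 1198 of 1200 in replicate 2. Model ends split, with 87.4 ± 0.35% of reads at the far end, that of Snap25-201, and nearly all others 1077 nt upstream, at the end of Snap25-202. A read assigned to an annotated transcript carries that transcript's deposited end, so this split largely follows that of exon 5 and does not measure where reads ended.

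Stx1a, the plasma membrane syntaxin, was read 296 and 252 times, which gives 253 and 284 CPM (268 ± 21.4, SD, n = 2). Stx1a-201 took 260 and 224 reads, 88.4 ± 0.74% of the gene, the highest leading share among the 6 members with at least 20 reads in each library. The median of that share was 68.1% over the 6607 genes with this depth. Annotated transcripts took 89.3 ± 0.59% of Stx1a reads, and 289 of 289 and 243 of 244 spliced reads ended in the annotated last exon.

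The alternative junctions of Stx1a with at least 3 reads lay between exons 8 and 9. Between them, 276 of 288 and 233 of 242 reads used the sites of Stx1a-201. A longer exon 8, by 124 nt, joined to an exon 9 that starts 83 nt early, was found in 8 reads of replicate 1 (2.78%) and 4 of replicate 2 (1.65%). The early start of exon 9 with the usual exon 8, as in Stx1a-204, was found in 3 and 3 reads (1.04% and 1.24%). The annotation types Stx1a-204 as a substrate of nonsense-mediated decay. Its exon 9 is shown from the early start (chr5:135048911-135049003, plus strand) because it shows where translation would stop, with the stop codon in capitals.
Stx1a-204 exon 9: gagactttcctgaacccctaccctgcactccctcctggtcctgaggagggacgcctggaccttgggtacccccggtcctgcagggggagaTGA
The 83 added bases are 2 more than whole codons. Stx1a-204 has 256 codons in place of the 288 of Stx1a-201, and the stop lies 101 nt before the end of exon 9. The residues past that point of Stx1a-201 include its membrane anchor. The counts of 12 and 6 reads set the precision here, and the libraries' intervals overlap for both forms.

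Vamp2, the vesicle SNARE of most forebrain synapses, was next in level, with 1146 and 1114 reads. In CPM these are 981 and 1254, a mean of 1117 ± 193 (SD, n = 2), rank 69. Vamp1, the synaptobrevin of brainstem, spinal cord and some interneurons, had 15 and 10 reads, or 12.8 and 11.3 CPM (12.0 ± 1.12). Vamp1 thus made up 1.29% of the synaptobrevin reads of replicate 1 (95% exact interval 0.72 to 2.12) and 0.89% of those of replicate 2 (0.43 to 1.63). Vamp1 was the lowest of the 8 in both libraries when Cplx2 is counted under any name.

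In both synaptobrevin genes, splicing after exon 4 sets the last residues, at the end of the membrane anchor. The coding ends are shown because a form that keeps intron 4 was read in both genes. Capitals mark the stop codon, and the positions are on the plus strand: Vamp2-201 at chr11:69090650-69090666, Vamp2-202 at chr11:69090028-69090185, Vamp1-201 at chr6:125220050-125220066 and Vamp1-203 at chr6:125219638-125219651.
Vamp2-201, spliced: tttacttcagcactTAA
Vamp2-202, intron kept: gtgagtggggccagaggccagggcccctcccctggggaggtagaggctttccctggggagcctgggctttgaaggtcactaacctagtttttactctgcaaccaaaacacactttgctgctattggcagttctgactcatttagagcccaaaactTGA
Vamp1-201, spliced: tctacttttttactTGA
Vamp1-203, intron kept: gtaagtatcgcTGA
The forms have 116 and 163 codons in Vamp2 and 118 and 117 in Vamp1. In Vamp2, intron 4 was kept in 9 of 1031 reads of replicate 1 (0.87%) and 6 of 1043 of replicate 2 (0.58%). In Vamp1 it was kept in 2 of 8 and 2 of 7 reads. Pooled over the libraries, the kept form held 0.72% of Vamp2 reads (95% exact interval 0.41 to 1.19) and 26.7% of Vamp1 reads (7.79 to 55.1), and these intervals do not overlap. The Vamp1 value rests on 15 reads. Another Vamp1 form, Vamp1-202 with a more distant last exon, was seen in 1 read, in replicate 1. Vamp1-201 took 5 and 3 reads, and 1-exon models in its 3' UTR held 5 and 3. With model ends grouped within 50 nt, 33.3% and 30% of Vamp1 reads were at the Vamp1-201 end.

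Vamp2-201 took 932 and 956 reads, 83.6 ± 3.18% of the gene. Nearly all the rest was incomplete at the 5' side. Spliced models that lack the first exons held 7.33% and 6.73% of reads, and a 1-exon model of the last exon held 112 and 68 reads (9.77% and 6.10%). The leading intron chain of the former, with 71 and 65 reads, pools models of 1946 to 2071 nt. The outermost start among them is the deposited start of the short transcript Vamp2-203 within intron 2. That start is copied from the annotation and is not the start of each read. Annotated transcripts took 84.1 ± 3.00%, and 98.9% and 99.3% of spliced reads ended in the annotated last exon.

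Cplx1, complexin 1, was read 721 and 602 times, at 617 and 677 CPM (647 ± 42.6, SD, n = 2). Cplx1-201 took 519 and 445 reads, 73.0 ± 1.37%, the lowest leading share among the 6 genes. Most of the other reads belonged to 1-exon models, 158 reads of replicate 1 and 119 of replicate 2 (21.9% and 19.8%). Over all annotated genes such models held 14.2% and 11.8% of reads. Reads within 1 exon cross no junction and do not show whether their RNA was spliced. All of these Cplx1 reads but 1 belonged to a single model in each library within the last exon, which holds most of the 3' UTR. That model spans 1706 nt in replicate 1 and 619 nt in replicate 2. Its reads reach the annotated 3' end in the deposited coordinates. Of spliced reads alone, Cplx1-201 held 92.2 ± 0.04%.

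The leading unannotated splice in Cplx1 shortens exon 2 at its 5' side by 4 nt, in the 5' UTR. It was found in 9 of 529 reads of replicate 1 (1.70%) and 8 of 455 of replicate 2 (1.76%). The junction of exons 1 and 2 is shown, with the 4 omitted bases in capitals; the annotated exon 2 covers chr5:108548506-108548609 on the minus strand.
Cplx1 exons 1 and 2: tccaccttggaagGCAGaagaccctgacca
The share was near-identical in both libraries (Fisher exact p = 1, adjusted p = 1 over the same 10 tests). Shifts of 4 nt recurred: of 13 unannotated introns with at least 3 reads over the 8 genes, 5 had 1 site moved by 4 nt, in Vamp2, Nsf, Napb and Cplx1, with 32 reads in all. All 13 were seen in both libraries. Model ends of Cplx1 were at the annotated end in all 721 reads of replicate 1, while 22 reads of replicate 2 belonged to a 2-exon model that ends 1022 nt further on.

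Cplx2, complexin 2, was the gene whose count depended on its name. As deposited, 6 reads of replicate 1 and 292 of replicate 2 carried the name Cplx2 (5.14 and 329 CPM). In replicate 1, 376 reads of a 1-exon model (chr13:54379988-54383917) lay in the 3' UTR of Cplx2 on its strand but were named Gm48623, an annotated long noncoding gene that starts upstream. In replicate 2 the matching model (chr13:54379973-54383917) had 283 reads and was named Cplx2. Both models end at the annotated end of Cplx2.

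Counted under any name, with at least 50 shared exon bases, Cplx2 had 394 reads in replicate 1 and 292 in replicate 2. These are 337 and 329 CPM, a mean of 333 ± 6.12 CPM (SD, n = 2), so the libraries were nearly level. On this count Cplx1 made up 64.7% and 67.3% of the complexin reads. The 50-base limit was set after the data were seen: with any overlap counted, replicate 2 gains 69 reads of a downstream model that shares 1 base.

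Few Cplx2 reads were spliced, 18 in replicate 1 and 9 in replicate 2 under any name. The chain of Cplx2-201 was matched exactly by 3 reads and 1 read, and all its introns were held by 4 and 2. In replicate 1, 8 of the 18 spliced reads began in the exon of Gm48623 and 8 in exon 1 of Cplx2-201. In replicate 2 the same starts were found in 2 and 5 of the 9. RefSeq draws Cplx2 from chr13:54301964 to 54383923 in the same build, so that its gene includes nearly all of the Gm48623 span, while GENCODE starts it at 54371349. Reads that run from the Gm48623 exon into Cplx2 exons were thus present in both libraries.

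**Figure D1:**
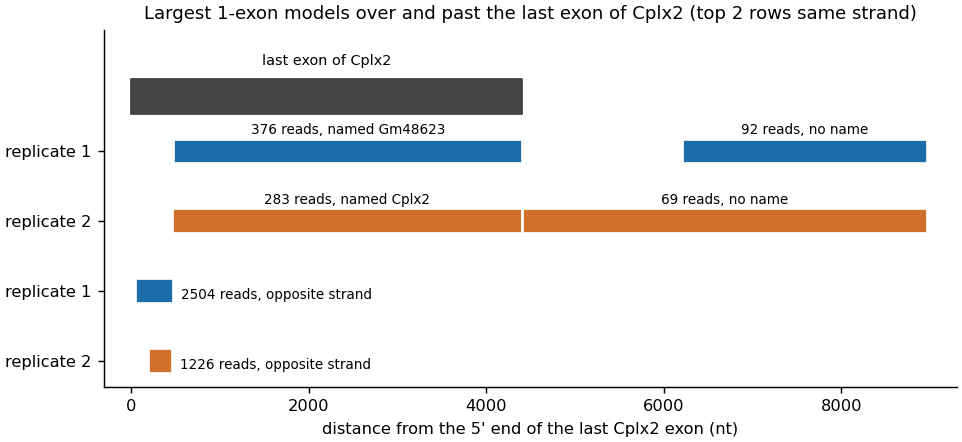
Largest 1-exon models at the 3' end of Cplx2, by distance in nt from the 5' end of its last exon; bars are model spans, labelled with their reads. The same-strand stretch carries 376 reads named Gm48623 in replicate 1 and 283 named Cplx2 in replicate 2, and the opposite-strand models sit at its upstream edge.

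Past the annotated end of Cplx2, unnamed same-strand models held 93 and 69 reads. The larger models, of 92 and 69 reads, start at 54385715 and 54383917 and end at the same base, 54388480, which is 4563 nt past the annotated end. In replicate 2, the model of 1 spliced read from Cplx2 exon 1 has that end too. These are deposited model starts and ends, which need not be those of each read. On the opposite strand, reads outnumbered the sense reads: there were 2508 and 1234 of them (2147 and 1389 CPM), nearly all from 1-exon models. A 1-exon read has no splice site against which its strand can be checked, so the strand here is the deposited one and was not tested. Their leading models, of 2504 and 1226 reads, lie 41 to 476 nt and 193 to 461 nt from the first base of the last exon. The deposited downstream edge is the base where the sense 1-exon model of the same library begins.

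Opposite-strand reads exceeded sense reads in both libraries in 795 of 11681 genes tested, or 6.81%, and 32.2% had none. By opposite-strand CPM, Cplx2 ranked 5 of the 11681. Snap25 had 152 and 58 opposite-strand reads (130 and 65.3 CPM), mostly of 1 model between the ends of Snap25-202 and Snap25-201. Vamp2 had 8 and 8, Nsf 5 and 1, Napb 2 and 3, Vamp1 0 and 1, and Stx1a and Cplx1 0 and 0.

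Nsf, the ATPase that takes SNARE complexes apart, was read 798 and 816 times. Its CPM was 683 and 918, a mean of 801 ± 166 (SD, n = 2), rank 107. Nsf-202, a transcript of 21 exons and 3766 nt, took 636 and 695 reads, 82.4 ± 3.87% of the gene. It is the chain with the most introns here, and 82.5% and 88.0% of reads held its first intron against 92.0% and 94.2% its last. The loss toward the 5' end was gradual, as the plot of introns shows, and the spliced incomplete models divided among many start exons, led by a 13-exon model with 12 and 9 reads. Annotated transcripts took 83.0 ± 3.6% of reads, and incomplete matches 13.7 ± 2.84%.

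The leading unannotated splice of Nsf shortens its last exon by 3 nt, in 6 of 743 and 6 of 781 spliced reads (0.81% and 0.77%). The junction is shown with the omitted bases in capitals; the annotated last exon begins at chr11:103823259 on the minus strand.
Nsf last 2 exons: gagaagaaggcgcTAGtcccctggactttg
Omitting 3 bases keeps the reading frame and leaves 1 codon fewer than the 744 of Nsf-202. In all, 98.9% and 98.7% of spliced reads ended in the annotated last exon.

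Napb, the brain form of the adaptor that brings NSF to the SNARE complex, was read 220 and 265 times, at 188 and 298 CPM (243 ± 77.7, SD, n = 2). The general form, Napa, had 561 ± 39.1 CPM, so Napb made up 26.1% and 33.6% of the reads of both. Napb-201 took 177 and 213 reads, 80.4 ± 0.05%. The rest was mainly a 1-exon model in the 3' UTR, with 34 and 36 reads, deposited in the Genomic class, which overlaps a gene without following its splice sites. Of spliced reads alone Napb-201 held 94.6 ± 2.25%. Each of the 10 introns was held by 81.4% to 85.7% of reads, with little loss toward the 5' end of this 4412-nt transcript. The leading unannotated splice lengthens exon 6 by 4 nt, in 2 of 181 and 3 of 224 reads.

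**Figure D2:**
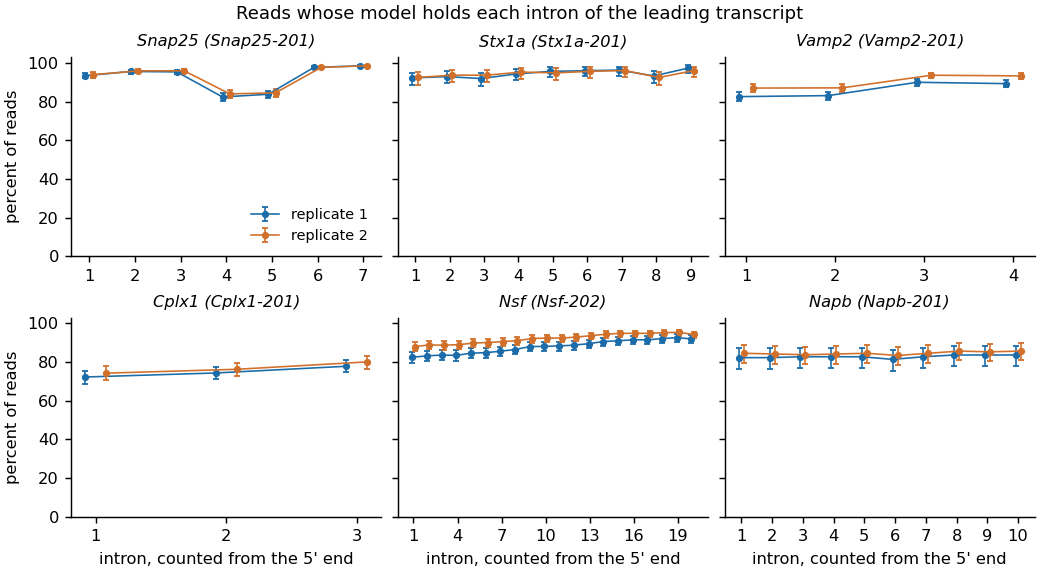
Percent of each gene's reads whose model holds each intron of the leading transcript, counted from the 5' end, in each library; bars are 95% exact intervals. Snap25 dips at introns 4 and 5, which flank exon 5b, Nsf falls gradually toward the 5' end, and Cplx1 and Napb sit below 90% along their length.

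**Figure D3:**
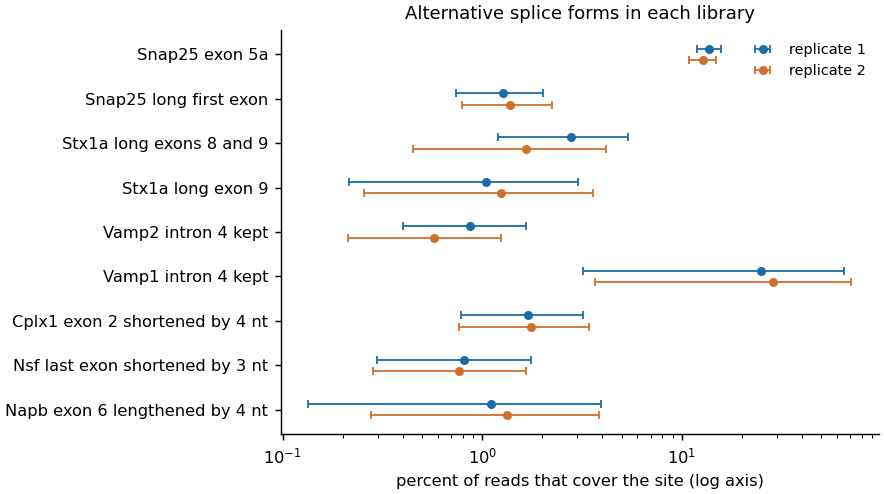
Percent of reads that cover each site and use the alternative form, on a log axis, with 95% exact intervals. Snap25 exon 5a sits near 13%, the Vamp1 form with intron 4 kept has the widest intervals, and the points of the other forms lie below 3% in both libraries.

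Unannotated sites took at most 3.4% of the reads of any member with at least 20 reads in each library, in Napb of replicate 2. New combinations of annotated sites took 6.25 ± 0.93% of reads over all genes, and 2.48 ± 1.27% in Stx1a, the highest of these 6. Among reads that keep the sites on either side of an internal exon, 53 alternatives to that exon were seen, but only the Snap25 exon 5 choice and the Cplx1 shift reached 10 reads. Introns that pass over whole internal exons of a leading chain were found 17 times, in Stx1a, Nsf, Napb and Cplx1. Of these, 6 skipped 1 exon and 11 skipped 2 or more, led by an Nsf intron that skips 2 exons, with 1 and 4 reads.

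**Figure D4:**
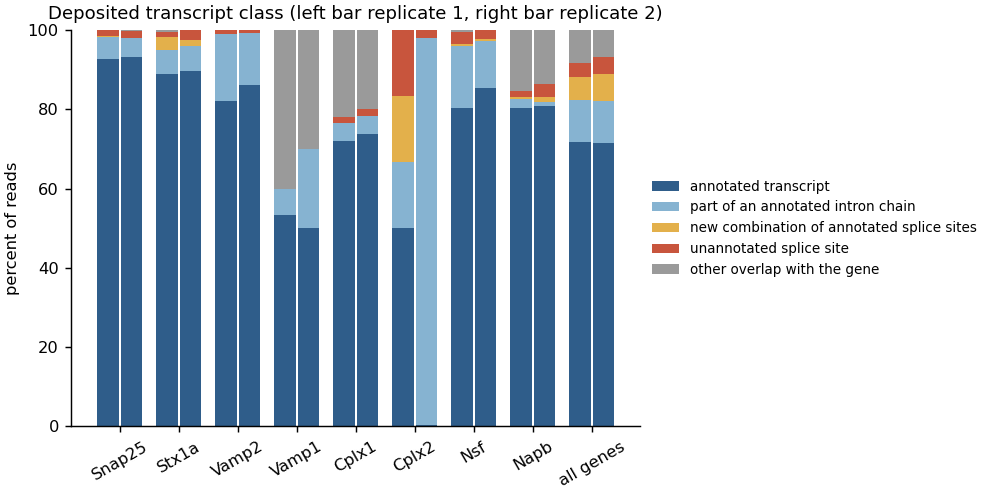
Percent of each gene's reads in each deposited transcript class, with the left bar for replicate 1 and the right bar for replicate 2. Annotated transcripts hold most reads in 6 of the genes, and 53.3% and 50% of the 15 and 10 reads of Vamp1. In Cplx2 they hold 50% of the 6 reads of replicate 1 and 0.34% of the 292 of replicate 2. The 1-exon model carries the name Cplx2 in replicate 2 but not in replicate 1.

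Poly(A) signals were searched in the last 50 bases of each leading transcript. AATAAA was present in Stx1a, Vamp2, Nsf, Napb and Cplx1, starting 20 to 24 nt before the end. ATTAAA was present in Snap25-201 and Vamp1-201, and neither motif in Snap25-202 or Cplx2-201. Over 41745 protein-coding transcripts of genes with reads in both libraries, 41.0% held AATAAA and 51.1% held either motif in that window. That set holds every annotated protein-coding transcript of these genes, read or not, so it is unlike the leading transcripts of the members. The search was on the transcript strand.

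By mean level, the order was Snap25, Vamp2, Nsf, Cplx1, Cplx2 counted under any name, Stx1a, Napb and Vamp1. Stx1a ranked 557, Napb 630 and Vamp1 8861 among the 19042 genes. Across the 2 libraries the ranges overlap for Snap25 and Vamp2 and for Stx1a and Napb. Within each library Snap25 was above Vamp2, at 1214 against 981 and 1367 against 1254 CPM. Stx1a was above Napb in replicate 1 (253 against 188 CPM) and below it in replicate 2 (284 against 298). Levels of different genes were not tested against each other. The lower value of Nsf, 683 in replicate 1, is close to the higher value of Cplx1, 677 in replicate 2. Within each library Nsf was above Cplx1, at 683 against 617 and 918 against 677 CPM.

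**Figure D5:**
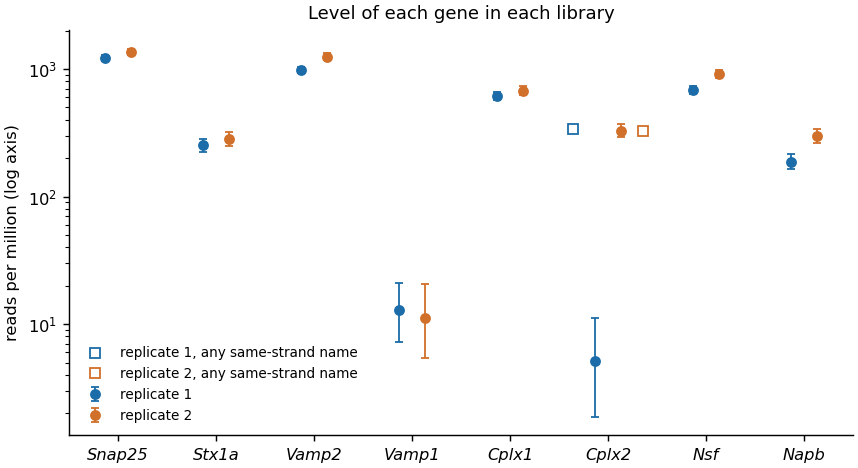
CPM of each gene in each library on a log axis; bars are 95% Poisson intervals, and open squares give Cplx2 under any same-strand name with at least 50 shared bases. Snap25 and Vamp2 lead at 981 to 1367, Vamp1 lies at 11.3 to 12.8, and Cplx2 by its own name is at 5.14 in replicate 1.

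The libraries were then compared gene by gene. Of 11681 genes with at least 10 reads, a 2-sided exact binomial test with Benjamini-Hochberg adjustment called 1342, or 11.5%, of which 730 (6.25%) were higher in replicate 2 and 612 (5.24%) in replicate 1. Of the 8 members, 5 were called, all higher in replicate 2, with Cplx2 counted under its own name. The share called depends on depth: with at least 50 reads required, 1426 of 6456 genes were called and 5 of the 7 members tested. The median log2 ratio of all 8 was 0.26, against 0.11 over all genes tested. With Cplx2 counted under any name with at least 50 shared bases, 4 members were called and the median was 0.17. With any overlap the median was 0.22. Napb was 1.58-fold higher in replicate 2 (95% exact interval 1.32 to 1.90, adjusted p = 2.34e-05). Nsf was 1.34-fold higher (1.22 to 1.48, adjusted p = 2.38e-07) and Vamp2 1.28-fold (1.18 to 1.39, adjusted p = 4.21e-07). Snap25 was 1.13-fold higher (1.04 to 1.22, adjusted p = 0.0263). Cplx2 was 64.0-fold higher under its own name (29.0 to 176, adjusted p = 4.54e-93). Counted under any name with at least 50 shared bases its log2 ratio was -0.04 (adjusted p = 0.948), and with any overlap 0.26 (adjusted p = 0.0883).

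Stx1a (1.12-fold, 0.94 to 1.33, adjusted p = 0.496), Cplx1 (1.10-fold, 0.98 to 1.22, adjusted p = 0.334) and Vamp1 (0.88-fold, 0.35 to 2.09, adjusted p = 0.977) were not called by the same exact test. The calls turned on scaling and on length. TMM factors of edgeR moved the median log2 ratio of all genes from 0.11 to -0.01; 370 genes were then higher in replicate 2 and 805 in replicate 1, and Snap25 was at log2 0.04 (adjusted p = 0.767). With the trend of the ratio with transcript length removed, 428 of the 11681 genes were called, and of the members Vamp2 and Cplx2 stayed past the threshold. For Cplx2 this was the count under its own name. The length trend was not removed from its count under any name. Longer transcripts had the higher ratios in replicate 2: the trend of the log2 ratio was 0.29 at the length of Nsf and 0.30 at that of Napb, against 0.07 at that of Snap25. The hippocampal field, choroid plexus and astrocyte markers given above also differ between the libraries, and their part in these ratios was not tested.

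The share of the leading transcript was called in 70 of 6607 genes (1.06%) by Fisher's exact test with Benjamini-Hochberg adjustment, and in 0 of the 6 members tested. At an unadjusted p under 0.05, 2 passed, Vamp2 (81.3% and 85.8%, adjusted p = 0.183) and Nsf (79.7% and 85.2%, adjusted p = 0.177). Reads in the 1-exon model of the last exon numbered 112 and 68 in Vamp2 and 52 and 35 in Nsf, in libraries of unlike depth. As shares of the gene's reads, all 1-exon models held 9.77% and 6.10% in Vamp2 and 6.89% and 4.29% in Nsf. Over all annotated genes this share was 14.2% and 11.8%, also higher in replicate 1. Among spliced models only, the same exact test gave adjusted p = 1 for Vamp2 and 0.814 for Nsf.

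Other genes of the pathway follow. Of 11 other SNAREs of the plasma membrane and of vesicles, Snap47 led with 609 ± 32.6 CPM, and Vamp4 had 94.7 ± 11.4 CPM. By the exact binomial test 0 of the 10 tested were called, against 11.5% of all genes, and 5 had an unadjusted p under 0.05, against 22.2%. Of 18 SNAREs of other transport steps, Stx7 (205 ± 18.8 CPM), Stx6 (150 ± 43.4) and Gosr2 (133 ± 10.5) led. Stx6 was higher in replicate 2 (log2 0.59, adjusted p = 0.00595) and Vti1b higher in replicate 1 (log2 -0.91, adjusted p = 1.74e-04) by the same exact test. Stx6 lost its call with TMM factors (adjusted p = 0.0526) and with the length trend removed (adjusted p = 0.459), and Vti1b kept its call in both. Of the 4 relatives of the regulators, Napa led, Napg had 27.7 ± 5.33 CPM and Cplx3 3.53 ± 1.37, and 0 of the 2 tested were called, with 0 at an unadjusted p under 0.05. Cplx4, a complexin of the retina, had 0 reads in both libraries.

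Of 14 chaperones and priming factors, Dnajc5, the cysteine string protein, had 210 ± 36.2 CPM and Snph, a syntaxin binder also known for docking mitochondria, 177 ± 64.9. Of the 12 tested, 2 were called by the exact binomial test, both higher in replicate 2, among them Snph (log2 0.76, adjusted p = 3.44e-05), against 11.5% of all genes. With the length trend removed 0 of the 12 were called, and Snph was at log2 0.46 (adjusted p = 0.0674).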

How the data were processed

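Long-read RNA sequencing of tissue labelled layer of hippocampus was measured in 1 group of 2 libraries. Per the file headers, the authors deposited for each library a table of read counts for transcript models, not normalized, and the models themselves on mm10 with GENCODE M21; the models carry TALON identifiers. Aligner, tool versions and read filtering: not given in the sources used here. Novelty classes are those of the deposited tables.

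CPM was computed over all reads of a library, spike-ins included (1.72% and 1.15%). Models were matched between libraries by intron chain. Gene totals were compared by exact binomial tests, and shares by Fisher's exact tests, with Benjamini-Hochberg adjustment over all genes tested and a threshold of 0.05 (scipy 1.17.1). Minimums were 10 reads over both libraries for levels and 20 in each for leading shares. These p-values, intervals and floors cover counting error only. Leading models and others with at least 5% of a gene's reads were named, with the leading unannotated spliced model. From each pathway list the 3 highest genes, genes at 0 and called genes were named; some of these are not reported here. TMM (edgeR 4.0.16) and DESeq2 1.42.0 size factors, filters and model sets were alternatives. The scripts were tested on simulated data. Sequences were read from GENCODE M21 transcripts. The members and gene lists were chosen with earlier results of these data known.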

Additional observations from a re-analysis of the deposited data

Results flagged for a closer look

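Opposite-strand reads over the exons of 3 of the 8 genes lay outside the counts of the report and above the 3 reads that a count of 0 allows, in both libraries. The mean was 1768 ± 536 CPM (SD, n = 2) over Cplx2, 97.7 CPM over Snap25 and 7.92 CPM over Vamp2. The strand is that of the deposited models; for 1-exon reads, which make up nearly all of those over Cplx2, it could not be checked against splice sites. Same-strand reads without a gene name past the annotated end of Cplx2 had a mean of 78.6 CPM, from 93 reads in replicate 1 and 69 in replicate 2. There were no control samples to set these against.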

How the results depend on the processing

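No paired analysis was possible because there is 1 group. Of 258 values recomputed under an alternative, 218 were labelled the same, 6 lost their call, 33 moved further and 1 changed sign. That label means a kept direction and side of the threshold, a move within the spread or, for counts, a change within a set factor. With 2 libraries, a level or share with 1 library left out always lies within the spread. Those checks could not come out otherwise and show nothing about stability. With the length trend removed, 428 of 11681 genes were called (210 higher in replicate 2 and 218 in replicate 1). Of the members 2 were called, Vamp2 and Cplx2 under its own name. Of the transport SNAREs 1 was called (Vti1b) and of the chaperones and priming factors 0. Genes higher in replicate 2 numbered 370 with TMM and 385 with DESeq2 factors, and TMM left 1 transport SNARE, Vti1b. Snap25 lost its call under TMM, DESeq2 factors and length correction, Nsf and Napb under length correction, and Cplx2 with reads of any name. The log2 ratio of Cplx2 was -0.037 with at least 50 shared bases, a limit chosen after seeing the data. Counting annotated transcripts only, mean CPM was 239.7 for Stx1a, 6.24 for Vamp1 and 472.5 for Cplx1. The mean of Cplx2 was 1.85 CPM for annotated transcripts and 372 for reads of any name. Both count as within the spread only because its SD, 229 CPM, exceeds its mean of 167. With 1 library left out, Cplx2 was at 5.14 to 329 CPM and its annotated share at 0.34% to 50%. Among models with at least 2 reads, annotated transcripts held 93.5% in Snap25, 93.2% in Stx1a, 54.2% in Vamp1 and 82.8% in Napb. Leading shares were called in 17 genes among spliced models. Unannotated spliced models alone gave 12.2% exon 5a. Exon alternatives numbered 2 among annotated transcripts, 11 with at least 2 reads and 30 to 36 with 1 library left out; those with at least 10 reads numbered 1 among annotated transcripts and 1 without either library. Reads at the leading end of Vamp1 were 31.7% with ends grouped within 50 nt and 93.3% with ends grouped within 200 nt. Without 1-exon models they were 49.2% in Vamp1 and 99.6% in Napb. The cause was not tested in the other cases. Vamp1, with 15 and 10 reads, and spliced Cplx2, with 18 and 9, are limited by depth.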
